A study of Homo sapiens with 6 samples.

Results

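The mRNAs of the structural maintenance of chromosomes (SMC) family and of the cohesin subunits and loader that work with them were followed in RNA that came down with ORC1. The set was chosen by gene symbol and held 10 genes: SMC1A, SMC2, SMC3, SMC4, SMC5, SMC6, STAG1, STAG2, NIPBL and RAD21. Each symbol matched 1 row among the 23013 genes of the series, and all 10 genes were among the 16513 tested, which averaged 10 or more normalised counts over the libraries. The RNA came from native RIP-seq, in which RNA held by a protein is immunoprecipitated without crosslinking and sequenced. Nuclei of HCT116, a human colorectal cancer line, were lysed and an antibody was used against ORC1, the largest subunit of the origin recognition complex, which marks the sites where DNA replication can start. The 6 libraries were 3 inputs of nuclear RNA without antibody and 3 ORC1 immunoprecipitates (ORC1 IP), and each input shares a RIP replicate number, 1 to 3, with an ORC1 IP. All libraries came from the same asynchronous, untreated line, and the comparison answers which RNAs were more abundant in the ORC1 IP than in the nuclear RNA it was drawn from. The study also ran its RIP with a control IgG, and reports that no RNA was detectable in it. It further reports a RIP of tagged ORC1 with another antibody, in which most RNAs overlapped those of endogenous ORC1. Neither was analysed here, and the part of antibody or beads in the difference was not tested. In RNA pooled from many cells, more cells with an mRNA and more of it per cell cannot be told apart.

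SMC proteins are long ATPases that fold back on themselves through a coiled coil, so that an ATPase head sits at one end and a hinge at the other. They act in pairs. SMC1A and SMC3 form the core of cohesin, which the kleisin RAD21 closes into a ring, STAG1 or STAG2 joins as an alternative subunit, and NIPBL loads onto DNA. Cohesin holds sister chromatids together after replication and extrudes chromatin loops. SMC2 and SMC4 form the core of condensin, which compacts mitotic chromosomes, and SMC5 and SMC6 form that of the SMC5/6 complex, which acts in recombination and at stalled replication forks.

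Recovered reads on genes ranged from 13703033 to 17248924 in inputs and from 25134156 to 36008733 in ORC1 IPs. Normalised counts are counts divided by 1 size factor per library, which was 0.869, 1.72 and 1.34 in ORC1 IPs 1, 2 and 3. ORC1 IPs 1 and 2 had similar reads (26213138 and 25134156), so scaling by total reads would place ORC1 IP 2 higher relative to ORC1 IP 1. ORC1 IP replicate 2 stood apart from the other ORC1 IPs. Its log2 values correlated with those of ORC1 IPs 1 and 3 at Pearson r of 0.9025 and 0.9196 across genes, against 0.9576 between ORC1 IPs 1 and 3. The differences of the 10 genes are therefore given with and without ORC1 IP 2. With input 1, ORC1 IPs 1, 2 and 3 correlated at 0.9177, 0.9413 and 0.9426, so ORC1 IP 3 was as close to input 1 as ORC1 IP 2 was. Only ORC1 IP 2 correlated more highly with input 1 than with both other ORC1 IPs. Of the markers of the line, EPCAM, CDH1, KRT8, KRT18 and KRT19 were at 560.3 or more normalised counts in every library and VIL1, a marker of differentiated enterocytes, was at 6.30 or less. Of 5 markers of other cell types, COL1A1 (161 to 787) and ALB (0 to 6.97) were among the genes analysed here, and PTPRC, CD3E and PECAM1 were not. Their sum was 161 to 300 normalised counts in inputs and 432 to 788 in ORC1 IPs, higher in every ORC1 IP as for SMC3, SMC4, SMC5, SMC6 and NIPBL, and its part in the results was not tested.

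Tandem GAA repeats are a sequence feature that the study found enriched in RNA bound by ORC1. From the positions of crosslink peaks and from gel shift assays, it concludes that ORC1 does not bind RNA through them. The transcripts were searched for them on the sense strand of the longest protein-coding transcript of each gene in GENCODE v44 (GRCh38), or the longest of any type for a gene that has none. The letters GAAGAAGAA occurred in 5 of the 10 transcripts. They occurred in 13.1% of the 16062 tested genes with an annotated transcript and in 20.4% of the 6303 whose transcript was at least as long as that of RAD21, the shortest of the set. The longest GAA run of 4 of these transcripts is shown with its flanks in DNA letters, 5′ to 3′, and capitals mark the run.

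SMC1A: aactgaaggaGAAGAAGAAggagctgggca

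NIPBL: ccctgatGAAGAAGAAGAAGAAggggaggt

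SMC2: atgacttgatGAAGAAGAAgagaattgtag

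SMC5: tacaaaaagaGAAGAAGAAatagaacagtt

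These 4 runs lie in the coding sequence. Counted from the 5′ end of the transcript, the run of 5 repeats in NIPBL spans bases 8383 to 8397, and the runs of 3 repeats start at base 1069 in SMC1A, 3310 in SMC2 and 2790 in SMC5. RAD21, STAG1, STAG2, SMC4 and SMC6 held no run of more than 2 repeats. The 5 transcripts with the letters included SMC3 and SMC5, which passed the test below, and SMC1A, NIPBL and SMC2, which did not, whereas SMC6 passed without them.

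The mean log2 level of each of the 10 mRNAs was higher in the ORC1 IP than in input, and the 3 that passed the test were all SMC genes. SMC3, SMC6 and SMC5 rose by 2.63, 2.23 and 1.91 on the log2(normalised count + 1) scale, which is 6.19-, 4.69- and 3.76-fold (limma adjusted p of 0.0308, 0.0367 and 0.0461, n = 3 against 3). The other 7 lay between 0.55 for RAD21 and 1.95 for SMC2 and did not pass. The count of 3 of 10 compares with 2.28% of all 16513 tested genes called higher, and the median of 1.91 over the 10 with a median of 0.01 over all tested genes. None of the 10 was called lower in limma, edgeR or DESeq2, and at an unadjusted p under 0.05 limma gave 6 higher and 0 lower. Over all tested genes, limma called 1.42% lower, and 12.2% were higher at an unadjusted p under 0.05. The same 6 members were also more than 1 higher on the log2 scale, a looser rule that 10.9% of tested genes met. All 10 differences were positive, as were 50.7% of those of all tested genes, and 7 of 10 genes were higher in the ORC1 IP in every replicate number, as were 19.8%.

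The size of the difference depended on which libraries were read. Without ORC1 IP replicate 2, 9 of 10 mRNAs were called higher, all but RAD21, against 11.9% of all genes, and the median was 2.33. Leaving out input replicate 2 or 3, or ORC1 IP replicate 1 or 3, left 0 called in limma in each case, with 6 of the 10 at an unadjusted p under 0.05 each time, and medians from 1.48 to 1.80. In these 4 fits, in that order, limma called 0.291%, 0.0363%, 1.19% and 0.145% of all genes higher, and 8.24%, 6.78%, 10.4% and 10.4% were higher at an unadjusted p under 0.05. Leaving out input replicate 1 gave 4 calls, with SMC4 added, against 2.44% of all genes. With the replicate number as a block limma called 4 of 10, with SMC2 added (2.62% of all genes), and edgeR also called 4 (2.58%). Without the block, edgeR called 2 of 10 (2.57% of all genes) and DESeq2 7 of 10 (7.74%), or 6 with the block (5.58%). Scaling by total count left 1 call (0.527% of all genes), and leaving out the intensity trend of limma left 0 (0.866%), with 6 at an unadjusted p under 0.05 (11.8% of all genes).

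In every one of the 10 genes ORC1 IPs 1 and 3 lay above all 3 inputs. ORC1 IP 2 was the lowest ORC1 IP in 9 of 10 genes, the exception being SMC5, and input 1 was the highest input in 9 of 10, the exception being SMC1A. The shares of all tested genes with these orders were not computed. The orders therefore describe the libraries, depend on the size factors and are not read as traits of the 10 genes. In 5 genes (SMC3, NIPBL, SMC4, SMC5 and SMC6) all 3 ORC1 IPs lay above all 3 inputs, an order seen in 12.7% of tested genes. The 10 genes together held 0.191%, 0.107% and 0.0909% of normalised counts in inputs 1, 2 and 3, against 0.393%, 0.200% and 0.324% in ORC1 IPs 1, 2 and 3, so that ORC1 IP 2 was close to input 1.

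**Figure D1:**
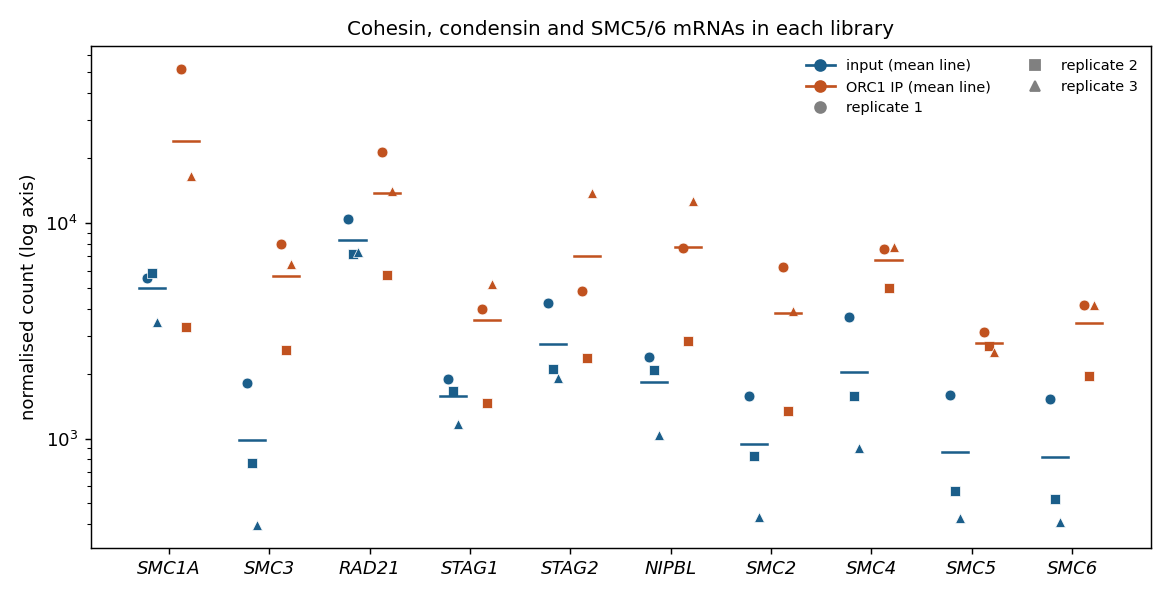
Normalised counts (log axis) of the 10 mRNAs in each library. Blue marks inputs and orange ORC1 IPs, the marker shape gives the replicate number, and horizontal lines are group means of 3 libraries. SMC3, NIPBL, SMC4, SMC5 and SMC6 show no overlap between groups, and the square of ORC1 IP 2 is the lowest orange marker for all genes but SMC5.

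Within cohesin, SMC3 (ENSG00000108055, chromosome 10, 110567684 to 110606048, plus strand) carried the largest difference of the set. It had 1802, 768 and 398 normalised counts in inputs 1, 2 and 3, against 7975, 2559 and 6423 in ORC1 IPs 1, 2 and 3. Its lowest ORC1 IP was above its highest input, and it ranked 103 of 16513 by log2 fold change (2.63 ± 0.58, SE). Without ORC1 IP 2 the value was 3.12 (limma adjusted p = 0.00132), and the call was lost without input 2 (0.113), input 3 (0.249), ORC1 IP 1 (0.0518) or ORC1 IP 3 (0.102). A processed copy, SMC3P1, shares 6.12% of the 50-base stretches of the SMC3 transcript, so a small part of its reads cannot be placed with certainty.

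SMC1A (ENSG00000072501, chromosome X, 53374149 to 53422728, minus strand), the partner of SMC3 in the ring, varied most. Inputs 1, 2 and 3 had 5572, 5871 and 3460 normalised counts, and ORC1 IPs 1, 2 and 3 had 51774, 3299 and 16500. ORC1 IP 1 was thus the highest value of any of the 10 genes in any library, while ORC1 IP 2 was below all inputs. The log2 fold change was 1.55 ± 0.84 (SE; limma adjusted p = 0.31), with a 95% interval from -0.27 to 3.36. Without ORC1 IP 2 it was 2.59 (0.00269) and without ORC1 IP 1 it was 0.61 (0.678).

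RAD21 (ENSG00000164754, chromosome 8, 116845934 to 116874776, minus strand), the kleisin that closes the ring, had the smallest difference. Its counts were 10464, 7155 and 7357 in inputs against 21397, 5730 and 14071 in ORC1 IPs 1, 2 and 3, so that ORC1 IP 2 again fell below all inputs. The log2 fold change was 0.55 ± 0.63 (SE; limma adjusted p = 0.666), and the 95% interval from -0.82 to 1.92 leaves room for a difference as large as that of SMC5. It was the only one of the 10 without a call when ORC1 IP 2 was left out (1.08, limma adjusted p = 0.0695).

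The alternative subunits STAG1 and STAG2 had similar averages. STAG1 (ENSG00000118007, chromosome 3, 136336236 to 136752403, minus strand) had 1887, 1666 and 1169 normalised counts in inputs against 3999, 1461 and 5226 in ORC1 IPs, a difference of 1.02 ± 0.49 on the log2 scale (SE; limma adjusted p = 0.254). STAG2 (ENSG00000101972, chromosome X, 123960212 to 124422664, plus strand) had 4240, 2093 and 1900 in inputs against 4845, 2350 and 13739 in ORC1 IPs, with 1.07 ± 0.61 (0.339). The average of STAG2 came from 1 library, ORC1 IP 3: the log2 difference between ORC1 IP and same-numbered input was 2.85 in replicate 3 but 0.19 and 0.17 in replicates 1 and 2, and without ORC1 IP 3 the value was 0.40 (0.745). Without ORC1 IP 2, STAG1 reached 1.57 (0.00747) and STAG2 1.67 (0.0248).

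NIPBL (ENSG00000164190, chromosome 5, 36876769 to 37066413, plus strand), which loads cohesin onto DNA, had 2379, 2088 and 1039 normalised counts in inputs against 7675, 2822 and 12639 in ORC1 IPs. The groups did not overlap, although ORC1 IP 2 was close to inputs 1 and 2. The log2 fold change of 1.91 ± 0.57 (SE) missed the threshold (limma adjusted p = 0.0797) and was 2.51 (0.0015) without ORC1 IP 2.

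The condensin cores behaved alike on average and differed in ORC1 IP 2. SMC2 (ENSG00000136824, chromosome 9, 104094260 to 104141419, plus strand) had 1572, 831 and 431 normalised counts in inputs against 6269, 1335 and 3896 in ORC1 IPs, 1.95 ± 0.59 apart on the log2 scale (SE; limma adjusted p = 0.0817). ORC1 IP 2 of SMC2 lay below input 1. With the replicate number as a block SMC2 passed (0.0408). SMC4 (ENSG00000113810, chromosome 3, 160399274 to 160434954, plus strand) had 3657, 1567 and 906 in inputs against 7532, 4976 and 7760 in ORC1 IPs, with no overlap and 1.94 ± 0.53 (SE; 0.0596). Without ORC1 IP 2 the values were 2.58 (0.00227) for SMC2 and 2.14 (0.00747) for SMC4.

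SMC5 and SMC6 were the only complex of which both SMC genes passed with all libraries. SMC6 (ENSG00000163029, chromosome 2, 17663812 to 17800242, minus strand) had 1522, 526 and 408 normalised counts in inputs against 4180, 1953 and 4140 in ORC1 IPs, a difference of 2.23 ± 0.51 on the log2 scale (SE). SMC5 (ENSG00000198887, chromosome 9, 70258978 to 70354873, plus strand) had 1599, 574 and 426 in inputs against 3103, 2671 and 2520 in ORC1 IPs, a difference of 1.91 ± 0.47 (SE). In normalised counts SMC5 was the most even of the 10 in the ORC1 IP, and ORC1 IP 2 did not stand apart for it. Its value without that library, 1.93 (limma adjusted p = 0.0117), thus barely moved. This evenness depends on the size factors and was not examined under other scalings. Neither call held without input 2 (0.157 for SMC6 and 0.188 for SMC5), input 3 (0.272 and 0.315), ORC1 IP 1 (0.063 and 0.079) or ORC1 IP 3 (0.115 and 0.106).

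Some of these genes overlap others on the opposite strand, and the strand setting of the counting was not given in the sources used. In GENCODE v44, and of protein-coding genes analysed here, the body of SMC6 overlaps GEN1 over 35089 bases, RAD21 overlaps UTP23 over 3530, SMC4 overlaps TRIM59 over 2510 and IFT80 over 607, STAG1 overlaps PCCB over 1661 and SMC1A overlaps RIBC1 over 39, introns included. Protein-coding genes not analysed here overlap SMC4 (ENSG00000248710, all 35681 bases of the gene) and STAG2 (TENM1, 46762 bases) on the opposite strand, and STAG2 on the same strand (SH2D1A, 145330 bases, and TEX13D, 90615).

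**Figure D2:**
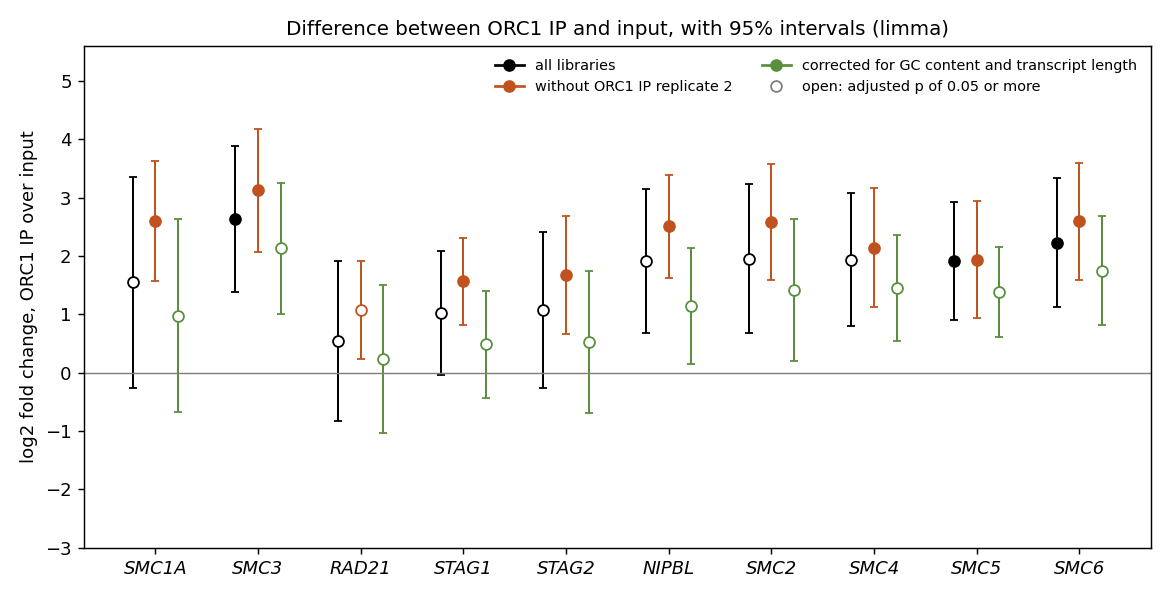
Log2 fold change of ORC1 IP over input with its 95% interval (limma) for the 10 mRNAs, with all libraries (black), without ORC1 IP replicate 2 (orange) and after correction for GC content and transcript length (green). Filled points passed an adjusted p of 0.05: 3 in black, 9 in orange and 0 in green.

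Because levels can be compared between genes only per length, normalised counts were divided by the length of the longest coding transcript. In inputs RAD21 was the highest, at 2248 ± 501 normalised counts per kb (SD, n = 3), and its range lay above that of SMC1A, the next, at 500.3 ± 132. The other 8 followed from STAG2 (444 ± 210) over SMC4, STAG1, SMC3, NIPBL, SMC2 and SMC6 to SMC5 (146 ± 107), and no neighbours in this order below RAD21 had ranges that were apart. The order held in all 3 inputs for RAD21 over SMC1A, STAG2 over SMC4 and SMC6 over SMC5. In ORC1 IPs RAD21 (3707 ± 2116) and SMC1A (2403 ± 2524) were again the highest on average, and no neighbours had ranges that were apart. SMC5 was the lowest in both groups.

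**Figure D3:**
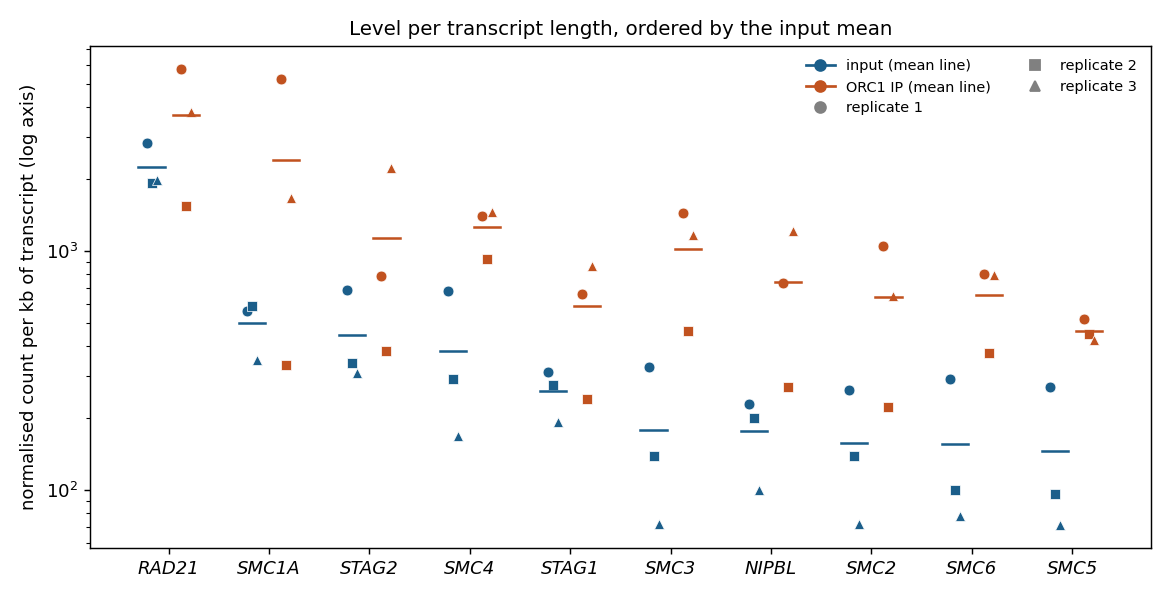
Normalised count per kb of transcript (log axis) of the 10 mRNAs, ordered by the input mean, with inputs in blue, ORC1 IPs in orange, marker shapes for replicate numbers and lines for means of 3 libraries. RAD21 leads in both groups, and its inputs lie above those of the other 9 genes.

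Ratios of partner mRNAs within a library do not depend on scaling between libraries and were compared for 4 pairs. The ratio of SMC3 to SMC1A per kb was 0.582, 0.235 and 0.207 in inputs against 0.277, 1.39 and 0.700 in ORC1 IPs 1, 2 and 3. Per kb, SMC3 was thus at the higher level of the pair in ORC1 IP 2 alone. Before division by length the ratio in that library was 0.776, so this order rests on the transcript lengths used. Which transcripts were expressed was not tested. The mean log2 ratio was higher by 1.08 in the ORC1 IP, but the ranges overlapped (two-sided exact permutation test, p = 0.2, adjusted over the 4 ratios 0.8, smallest possible p 0.1). SMC6 and SMC5 were near balance in inputs, with SMC6 to SMC5 ratios per kb of 1.08, 1.04 and 1.09, and spread to 1.53, 0.830 and 1.87 in ORC1 IPs (difference in mean log2 ratio 0.32, exact permutation p = 0.4). For SMC4 to SMC2 the ratios per kb were 2.60, 2.11 and 2.35 in inputs against 1.34, 4.17 and 2.23 in ORC1 IPs. For STAG2 to STAG1 they were 2.20, 1.23 and 1.59 in inputs against 1.19, 1.58 and 2.58 in ORC1 IPs. These 2 mean log2 ratios differed by -0.02 and 0.05 (exact permutation p = 1 for each). Without ORC1 IP 2 the differences of the 4 ratios, in the order SMC3 to SMC1A, SMC6 to SMC5, SMC4 to SMC2 and STAG2 to STAG1, were 0.53, 0.66, -0.44 and 0.10. The spread between ORC1 IPs was wider than that between inputs in all 4 pairs.

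The other genes of the complexes were taken from a list of 33: 18 cohesin variants and regulators, 6 condensin subunits, 7 SMC5/6 subunits and partners, and 2 further SMC-like genes. Of these, 32 were tested, 1 was called higher and 0 lower in limma, 25 had a positive and 7 a negative log2 fold change, and the median was 0.67. Over all tested genes 2.28% were called higher. At an unadjusted p under 0.05 there were 5 of 32 higher and 1 lower, against 12.2% higher and 9.45% lower over all tested genes. The gene called was RAD50, an SMC-like ATPase of the complex that senses DNA double-strand breaks. It had 1309, 914 and 495 normalised counts in inputs against 6353, 2542 and 4698 in ORC1 IPs, with no overlap and a log2 difference of 2.33 ± 0.47 (SE; limma adjusted p = 0.0239). RAD50 lost the call without input 2 (0.0831), input 3 (0.214) or ORC1 IP 3 (0.0798).

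Among cohesin regulators the highest values were those of PDS5B (1.76 ± 0.51, limma adjusted p = 0.0715), which modulates cohesin release, and SGOL1 (1.74 ± 0.47, 0.0594; SE), now named SGO1, which protects centromeric cohesin. With the replicate block SGOL1 passed (0.0321) and PDS5B did not (0.0508), which raised the count of called genes on the list from 1 to 2. RAD21L1, a meiotic kleisin, was below the filter. The lowest values were those of NSMCE1 (-0.91 ± 0.38, limma adjusted p = 0.186), a ubiquitin ligase subunit of SMC5/6, NCAPH2 (-0.72 ± 0.40, 0.324), the kleisin of condensin II, and PTTG1 (-0.69 ± 0.37, 0.311; SE), the separase inhibitor securin. In NSMCE1 and NCAPH2 all ORC1 IPs lay below all inputs, as in 13.5% of tested genes.

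With all libraries the SMC genes of both condensin and SMC5/6 lay above every other tested subunit of their complex, given here as a description. Among the cohesin genes this order did not hold. SMC3 was the highest at 2.63, but SMC1A at 1.55 lay below the loader NIPBL (1.91) and the regulators PDS5B (1.76) and SGOL1 (1.74). In condensin SMC2 and SMC4 were at 1.95 and 1.94, against a median of 0.33 over the 6 non-SMC subunits, the highest of which was NCAPH at 1.14. In SMC5/6 the 2 SMC genes were at 1.91 and 2.23, against a median of 0.56 over the 7 others, which ranged from -0.91 to 0.86. Without ORC1 IP 2, NCAPH was at 1.96 (limma adjusted p = 0.0031), close to SMC4 at 2.14, NCAPG at 1.35 (0.0214) and NCAPD2 at 0.93 (0.156), so that the gap in condensin was narrower. The highest of the 7 others of SMC5/6 was then ANKRD32, now named SLF1, at 1.04 (0.0642), against 1.93 for SMC5. In that fit 8 of the 32 genes were called higher, against 11.9% of all tested genes, and their median was 0.85. With all libraries but adjusted for length and GC, SMC5 and SMC6 were at 1.38 and 1.75. The highest of the 7 others was then NSMCE4A at 0.84. SMC2 and SMC4 were at 1.41 and 1.45 after this adjustment, against 0.75 for NCAPH. The order thus stayed in both complexes, with narrower gaps.

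**Figure D4:**
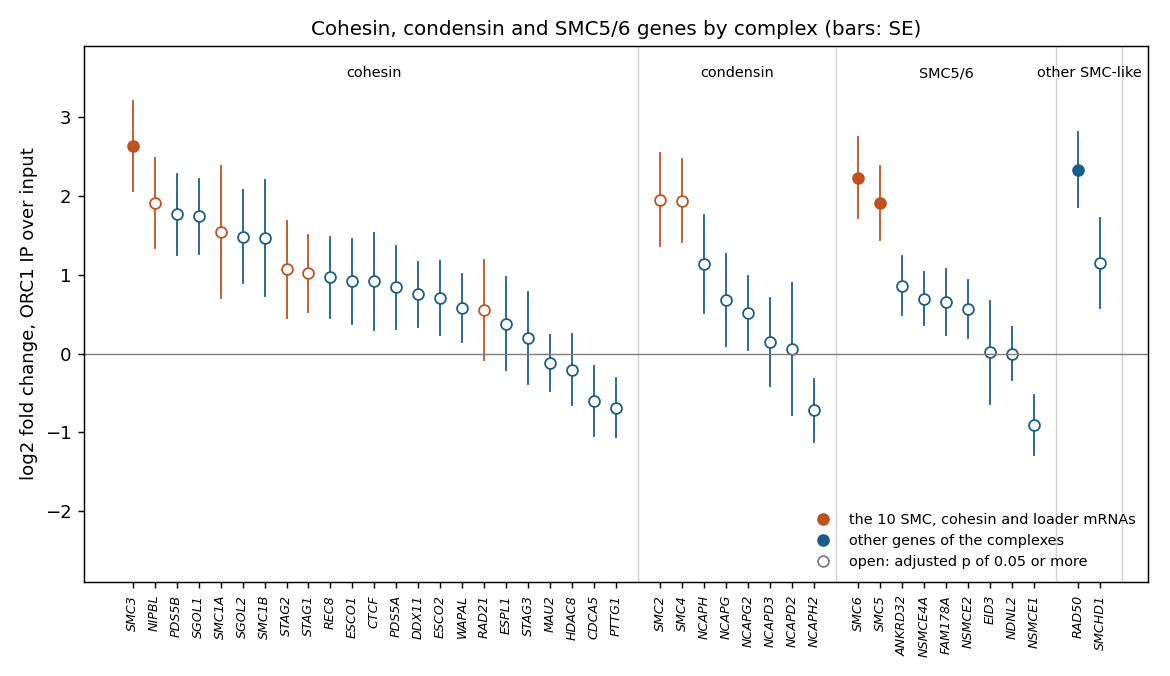
Log2 fold change of ORC1 IP over input (point) with its SE (bar) for the 10 mRNAs (orange) and 32 tested other genes of the complexes (blue), sorted within each complex. The filled points, SMC3, SMC6, SMC5 and RAD50, passed an adjusted p of 0.05, and the SMC genes of condensin and SMC5/6 lie above the non-SMC subunits of their complexes. Among the cohesin genes SMC1A lies below NIPBL, PDS5B and SGOL1.

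Length and base composition moved with these results. All 10 transcripts were longer than the median of 3000 bases of the tested genes, from 3704 bases for RAD21 to 10425 for NIPBL, and all 10 were below the median GC content of 48.4%, from 36.5% for SMC5 to 47.2% for SMC1A. Across the 16062 annotated genes the log2 fold change had a Spearman rho of 0.349 with transcript length and of -0.185 with GC content, a description over genes that share 6 libraries. After a smooth dependence on both features was removed from each library, all 10 remained positive, from 0.24 for RAD21 to 2.13 for SMC3, with a median of 1.26 against -0.07 over all genes. None of the 10 was then called in limma (SMC3 0.0629, SMC6 0.0648, SMC5 0.0688), and 6 had an unadjusted p under 0.05, against 10.4% of all genes. The correction reduced the share of all genes called higher to 0.747%, and to 0.299% with the replicate block added, again with 0 of the 10 called in limma and 5 at an unadjusted p under 0.05 (9.55% of all genes). RAD50 was at 1.68 (0.0585) after the correction.

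**Figure D5:**
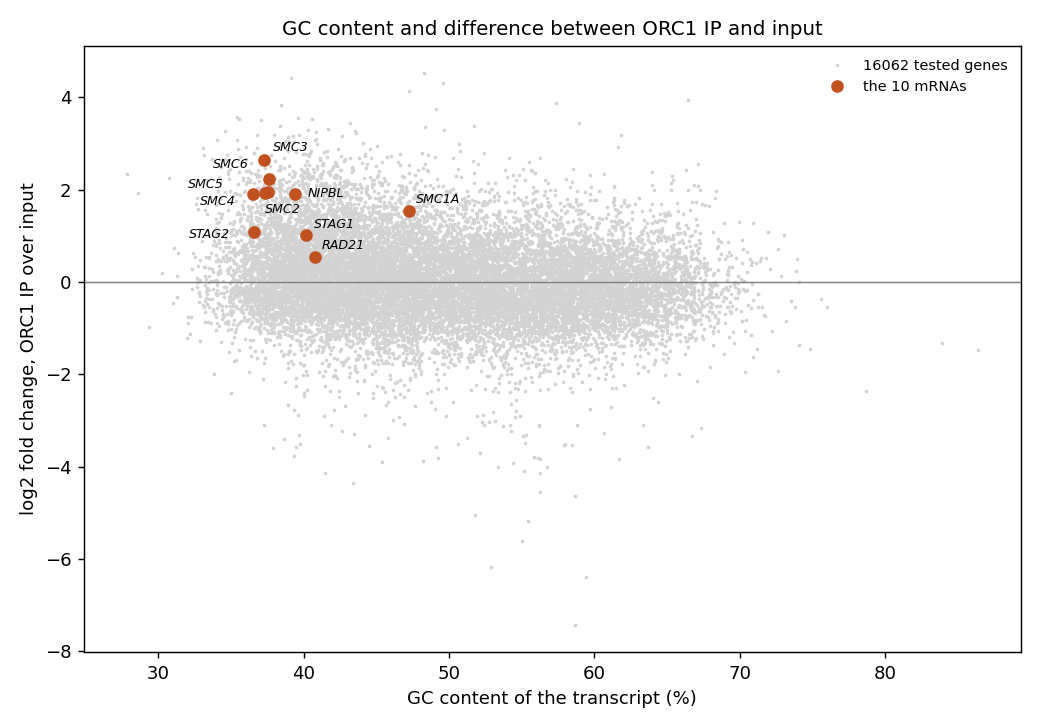
GC content of the longest transcript against the log2 fold change of ORC1 IP over input for 16062 tested genes (grey), with the 10 mRNAs in orange. SMC1A lies at 47.2% GC and the other 9 between 36.5% and 40.8%, all above 0 on the vertical axis.

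The Pearson correlation of each member with the mean standardised log2 profile of the other 9 over the 6 libraries ranged from 0.802 for RAD21 to 0.985 for SMC2, and that between single members from 0.533 (RAD21 and SMC5) to 0.991 (SMC3 and SMC6). Among 11368 other genes that averaged 100 or more normalised counts, the profiles most like the mean of the 10 were those of CHD1 (Pearson r 0.998), TRIM24 (0.996), KIF2A (0.995), AFF4 (0.994) and CAMSAP2 (0.993). The median over these 11368 genes was 0.0920, and 15.2% of them reached the lowest member value. The 6 points differ together in group and depth, with more reads in every ORC1 IP than in any input, so any gene that is higher in the ORC1 IP has part of this profile. The log2 fold changes of these 5 genes lay between 0.96 and 1.97, and none passed in limma.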

How the data were processed

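The 6 libraries are 3 inputs and 3 ORC1 IPs of HCT116 nuclei, with groups and replicate numbers from the labels. According to the methods and labels, the authors used Trimmomatic for trimming, STAR for alignment to hg19 and featureCounts for counts per Ensembl gene. The deposited value per library is a signal, the gene count divided by 1 size factor per library. Each value was a whole multiple of the smallest nonzero value within 0.001 for 100% of genes, so reads were recovered. The deposited table also holds the authors' log2 fold changes, a standard error and Wald score for each, p-values with adjusted p-values, and a mean, none of which was used.

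Log2(normalised count + 1) of 16513 genes with a mean of at least 10 was tested with limma 3.58.1 (intensity trend, no block, Benjamini-Hochberg over all genes, threshold 0.05). edgeR 4.0.16 and DESeq2 1.42.0 on recovered reads, other pseudocounts, filters and scalings, a replicate block, a GC and length correction (splines with 5 degrees of freedom each) and each library left out were alternatives. On simulated counts for 16513 genes, limma recovered 16.4%, 91.5% and 100% of genes changed by 1, 2 and 3 on the log2 scale. The simulation gave every gene the same fixed dispersion (spread between libraries) and set no library apart. Its shares check the code and do not give the recovery in these data, where SMC2, SMC4 and NIPBL did not pass at 1.95, 1.94 and 1.91.

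The labels place same-numbered libraries in 1 RIP replicate. Their deviations from group means correlated at -0.322, -0.240 and 0.215 for replicates 1, 2 and 3, so the pairing rests on the labels alone. The methods give the ORC1 RIP as triplicate experiments. The labels name no separate cultures, and p-values measure the spread between these experiments. Replicates of a group were not repeats of each other (chi-square of 49.5 to 676 per degree of freedom). Coordinates and transcripts are of GENCODE v44 (GRCh38), matched by Ensembl identifier for 97.3% of tested genes. The members and lists were chosen with earlier results of these data known. Named were all members, the called genes and the 3 highest and 3 lowest of the other list, and the 5 most alike profiles with a mean of at least 100. Further genes were named after their values were seen. One sequence is not reported here.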

Additional observations from a re-analysis of the deposited data

How the results depend on the processing

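The median log2 fold change of the 10 mRNAs stayed positive under all 21 alternatives, from 1.26 with the GC and length correction to 2.33 without ORC1 IP replicate 2. The number called was less stable. Against 3 with all libraries, total count scaling gave 1, DESeq2 7, the replicate block in DESeq2 6, and 0 remained without the intensity trend or with the GC and length correction, with or without the replicate block, while 5 or 6 of the 10 had an unadjusted p under 0.05 in limma, as did 9.55% to 11.8% of all genes on the higher side. Leaving out single libraries gave 0 to 9. For the 32 tested other genes of the complexes, against 1 called (2.28% of all genes), edgeR gave 2 (2.57%) and DESeq2 3 (7.74%). The replicate block gave 2 in limma (2.62% of all genes), 3 in edgeR (2.58%) and 3 in DESeq2 (5.58%). In limma 0 were called without the trend or with the correction, with or without the block. Of the 32, 4 to 6 were then higher at an unadjusted p under 0.05 (9.55% to 11.8% of all genes). Leaving out single libraries gave 0 to 8 (0.0363% to 11.9% of all genes). No gene of either list was called lower under any of these settings in limma, edgeR or DESeq2. The replicate block changed the calls of SMC2 and SGOL1 in limma and those of no other gene among the 10 and the 32 tested others. Total count scaling moved the median of all genes from 0.01 to -0.19, that of the 10 to 1.70, and the genes called higher and lower over the whole table from 376 and 234 to 87 and 96. The difference in the STAG2 to STAG1 log2 ratio changed sign without input replicate 2 (-0.15) or ORC1 IP replicate 3 (-0.25), with a range of -0.25 to 0.31. That in the SMC4 to SMC2 ratio did so without input replicate 1 (0.06), ORC1 IP replicate 1 (0.38) or ORC1 IP replicate 3 (0.01), with a range of -0.44 to 0.38. Neither had been separated from 0. The cause of these changes was not tested. Leaving out a library changed both the number of libraries and which of them were compared.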
